A study of Mus musculus with 32 samples.

Results

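Gdf15 encodes growth differentiation factor 15, a secreted cytokine of the TGF-beta family, and its RNA was followed in mouse blood after whole-body X-rays. It was read from the non-control array probe that carries the gene name Gdf15. That is 1 of 39429 non-control probes, and Gdf15 is 1 of the 15159 genes that passed the filter on dim probes. The samples were whole blood from 32 male C57BL/6 mice, taken by cardiac puncture 24 h after exposure or sham, depleted of globin RNA and hybridised as Cy3-labelled cRNA, 1 mouse per array. Irradiated groups were wild type (WT) mice given 8 Gy (5 mice), ATM-/- mice given 4 Gy (6 mice) and Scid mice given 3 Gy (5 mice). The matching sham-irradiated groups at 0 Gy held 6 WT, 5 ATM-/- and 5 Scid mice.

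ATM is the kinase that signals DNA double-strand breaks to p53, and Scid mice carry a defect in DNA-PKcs, the kinase of non-homologous end joining that Prkdc encodes. Each genotype received a dose set by its own lethality, so genotype and dose change together between the irradiated groups and cannot be told apart. No probe of Atm or Prkdc passed the filter: at most 3 of 32 arrays had a probe of Atm well above background, and 2 arrays the probe of Prkdc. The RNA of these 2 genes therefore gives no check of the genotype labels.

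GDF15 is made as a precursor that furin-type proteases cleave, and the mature dimer signals through GFRAL with RET as co-receptor in the hindbrain, where it lowers appetite. Its gene is a target of p53 after DNA damage and of ATF4 and CHOP (encoded by Ddit3) in the integrated stress response. Activated macrophages and, in humans, maturing erythroblasts are known sources. Blood is a mixture of cells, so a lower RNA level from fewer cells of a type and one from less RNA per cell cannot be told apart.

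The probe, A_55_P1960735 (designed on NM_011819), has 60 bases and lies on the minus strand at chr8:73153293-73153352 in mm9, the build named in the array files. Its last 30 bases, chr8:73153293-73153322, are shown because they place it at the 3′ end of the transcript. Capitals mark a polyadenylation signal, which ends 16 bases before the end of the probe.

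Gdf15 probe end: actctgctAATAAAggtgagcttggtttct

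RefSeq lists 2 starts for Gdf15 in GRCm38.p6. The 250 bases before one of them, chr8:70632457-70632706 on the minus strand, are shown because the genes compared with Gdf15 below were chosen as targets of p53 and of ATF4 and CHOP. Capitals mark CATG, the core of many p53 half-sites, searched on both strands (a palindrome).

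Gdf15 promoter: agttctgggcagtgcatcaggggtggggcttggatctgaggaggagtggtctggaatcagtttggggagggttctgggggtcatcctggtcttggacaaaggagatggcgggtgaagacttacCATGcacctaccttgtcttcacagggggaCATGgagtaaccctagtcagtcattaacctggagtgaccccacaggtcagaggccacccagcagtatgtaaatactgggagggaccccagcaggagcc

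These 250 bases held CATG 2 times, and the 250 bases before the other start held none. It was found at least once in 53.95% of the 32851 promoters given. The full p53 half-site consensus, which 7.13% of the promoters matched, had no exact match before either start of Gdf15. The same was true of the ATF4-CHOP element TGATGCAA (0.79% of promoters), the AP-1 site TGACTCA (4.46%) and the CRE TGACGTCA (1.55%). These counts describe the letters of this window only.

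Gdf15 was a dim probe, and its detection differed between irradiated and sham mice. It was well above background on 11 of 16 irradiated arrays, against 3 of 16 sham arrays. By group it was well above background on 5 of 5 WT 8 Gy arrays against 2 of 6 WT 0 Gy arrays, on 2 of 6 ATM-/- 4 Gy arrays against 1 of 5 ATM-/- 0 Gy arrays, and on 4 of 5 Scid 3 Gy arrays against none of 5 Scid 0 Gy arrays. Of all probes, 45.75% to 58.6% were well above background on WT 8 Gy arrays. On WT 0 Gy arrays this share was 28.02% to 53.28%. It was 32.499% to 43.19% on Scid 3 Gy arrays, against 24.99% to 47.68% on Scid 0 Gy arrays. It was 20.02% to 48.099% on ATM-/- 4 Gy arrays, against 36.57% to 43.38% on ATM-/- 0 Gy arrays. The Gdf15 counts were not corrected for these shares, so the WT counts carry the wider detection on WT 8 Gy arrays. On 12 arrays, 2 irradiated and 10 sham, the scanner software had replaced the signal by a surrogate set from the background error. Values at the surrogate have no order among themselves. Gdf15 passed the filter on dim probes, which asks for 4 or more arrays of a group, through WT 8 Gy and Scid 3 Gy mice alone. That choice favours genes high in those groups, and the tests of Gdf15 below carry it. Of the 15159 genes tested, 2003 passed the filter through WT 8 Gy mice alone.

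The mean spot signal over its local background is given first as read, with no account taken of how bright an array was. It was 12.3, 7.40, 3.63, 21.4 and 4.47 in WT 8 Gy mice, against 1.45, 1.32, 1.79, 1.57, 2.46 and 2.07 in WT 0 Gy mice. It was 3.36, 1.58, 2.33, 2.15, 1.82 and 1.57 in ATM-/- 4 Gy mice, against 1.19, 1.24, 1.74, 1.24 and 3.79 in ATM-/- 0 Gy mice. It was 2.84, 1.22, 6.89, 5.08 and 4.69 in Scid 3 Gy mice, against 1.15, 1.40, 1.42, 1.45 and 1.56 in Scid 0 Gy mice. The highest ratio was on a WT 8 Gy array, and the brightest spot of the ATM-/- groups was on a sham array. WT 8 Gy arrays were also brighter over all probes, with a 75th percentile signal of 127 to 232, against 24.1 to 203 on WT 0 Gy arrays, so these ratios carry array brightness and no difference between groups was read from them.

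**Figure D1:**
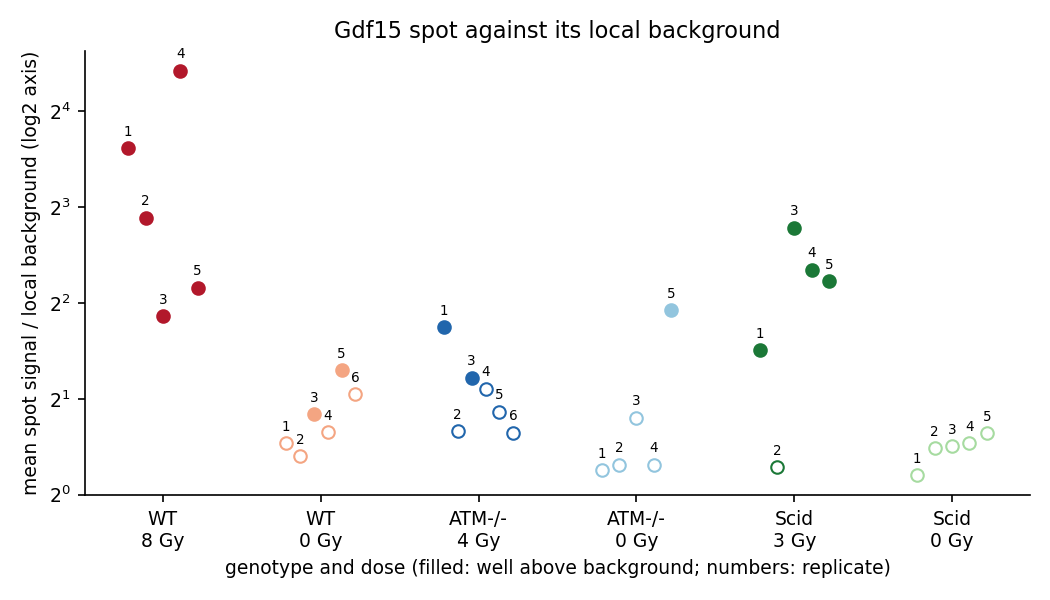
Mean signal of the Gdf15 spot divided by its local background (log2 axis) for each mouse, by genotype and dose. Filled points were well above background, open points were not, and numbers are replicates. The ratio is not corrected for array brightness, and runs from 3.63 to 21.4 in WT 8 Gy mice and from 1.32 to 2.46 in WT 0 Gy mice.

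To compare arrays of different brightness, each level below is the log2 processed signal minus the 75th percentile of log2 signals on the same array, so 0 is the level of a probe at that percentile. Differences were tested with limma over all 32 arrays, with Benjamini-Hochberg adjustment over 15159 genes and a threshold of 0.05.

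In wild type blood Gdf15 rose after 8 Gy. The processed signal was 453, 206, 58.4, 660 and 106 in WT 8 Gy mice, against 3.53, 2.25, 14.2, 3.11, 34.2 and 5.45 in WT 0 Gy mice. After scaling, the levels were 0.97, -0.17, -1.40, 2.25 and -0.25 in WT 8 Gy mice, against -4.53, -4.88, -0.76, -3.73, -2.57 and -2.78 in WT 0 Gy mice. Of the irradiated mice, 4 of 5 lay above every sham mouse, and replicate 3 lay below sham replicate 3, so the groups overlapped. Sham replicate 3 also stood apart in the summed B cell markers described below, at 1.77 against 4.04 to 7.26 in the other WT 0 Gy mice. The means were 0.28 ± 1.38 in WT 8 Gy mice (SD, n = 5) and -3.21 ± 1.51 in WT 0 Gy mice (SD, n = 6).

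The difference was 3.49 on the log2 scale (SE 0.91, 95% interval 1.63 to 5.34, limma adjusted p = 0.0132). Its size is uncertain, since 4 of the 6 sham values are surrogates, and no fold is given. In this comparison 7.2% of all genes changed, 1.13% higher and 6.07% lower. The standard error of Gdf15 was larger than that of 98.0% of the 15159 genes. The exact permutation test, two-sided over 462 arrangements, gave p = 0.00866 and 0.0779 after adjustment over the 9 pairs of groups compared. The value falls to 2.99 (adjusted p = 0.0592) without WT 8 Gy replicate 4, the mouse with the highest Gdf15. It was 1.05 with normexp background correction (adjusted p = 0.0780), 0.76 with all levels raised to a common detection limit (adjusted p = 0.290), and 3.40 with slide as a fixed block (adjusted p = 0.0641).

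In Scid blood Gdf15 rose after 3 Gy, with a call close to the threshold. The processed signal was 34.8, 1.77, 286, 108 and 113 in Scid 3 Gy mice, against 1.93, 1.83, 1.86, 8.25 and 2.94 in Scid 0 Gy mice. The scaled levels were -0.64, -3.51, 2.16, 1.38 and 1.60 in Scid 3 Gy mice, against -3.70, -3.84, -4.49, -2.87 and -2.54 in Scid 0 Gy mice. Irradiated replicate 2 lay within the sham range and the other 4 lay above it. The means were 0.20 ± 2.33 in Scid 3 Gy mice and -3.49 ± 0.78 in Scid 0 Gy mice (SD, n = 5 each).

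The difference was 3.69 (SE 0.95, 95% interval 1.75 to 5.62, limma adjusted p = 0.0479), in a comparison where 1.08% of genes changed, 0.0594% higher and 1.02% lower. Since no Scid 0 Gy array had the probe well above background, the size of this difference is uncertain. The Scid 3 Gy mean lay 3.64-fold above the mean of the 5 sham arrays' own detection limits. Each limit is the lowest signal of any probe well above background on that array. The 3.64-fold value is no lower bound, since on ATM-/- 4 Gy replicate 6 Gdf15 lay above the limit yet not well above background. The Scid 0 Gy limits ran from -2.84 to -0.25, and with all levels raised to the highest of them the difference was 1.18 (adjusted p = 0.163). The exact permutation test gave p = 0.0238, and 0.107 after adjustment over the 9 pairs. The adjusted p lay close to the threshold, and 8 of the 10 fits that left out 1 array of these groups did not pass it, with values from 3.20 to 3.90. The other 2, without Scid 3 Gy replicate 2 or Scid 0 Gy replicate 5, gave 4.62 and 3.93 and passed. With normexp the difference was 0.69 (adjusted p = 0.9998). With scan day as a fixed block it was 3.20 (adjusted p = 0.147), and with the fit on the Scid arrays alone the adjusted p was 0.121.

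In ATM-/- blood the difference after 4 Gy did not pass the test. The processed signal was 88.2, 6.501, 20.8, 11.95, 3.22 and 10.9 in ATM-/- 4 Gy mice, against 1.99, 2.05, 3.08, 2.29 and 56.3 in ATM-/- 0 Gy mice. The scaled levels were 0.97, -3.04, -2.42, -1.88, -3.73 and -0.69 in ATM-/- 4 Gy mice, against -4.67, -4.63, -4.28, -3.61 and -0.77 in ATM-/- 0 Gy mice. Only irradiated replicates 1 and 6 lay above every sham mouse, and sham replicate 5 lay above 4 irradiated mice. Replicate 6 carried the surrogate on the array with the smallest share of probes above background, 20.02%, so its scaled level is not a measured one.

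The means were -1.80 ± 1.71 in ATM-/- 4 Gy mice (SD, n = 6) and -3.59 ± 1.64 in ATM-/- 0 Gy mice (SD, n = 5). The difference was 1.79 (SE 0.91, 95% interval -0.06 to 3.65, limma adjusted p = 0.434), where 0.237% of genes changed and 0.0726% rose. The exact permutation test gave p = 0.117, and 0.226 after adjustment. Over the 11 fits that left out 1 array the difference ran from 1.24 to 2.50, highest without ATM-/- sham replicate 5 (adjusted p = 0.237). It was 0.29 with normexp, 0.29 with spike-in scaling and 0.20 with all levels raised to the common detection limit. The interval reaches from no change to a rise as large as that in WT mice, so these arrays do not show that Gdf15 failed to respond.

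**Figure D2:**
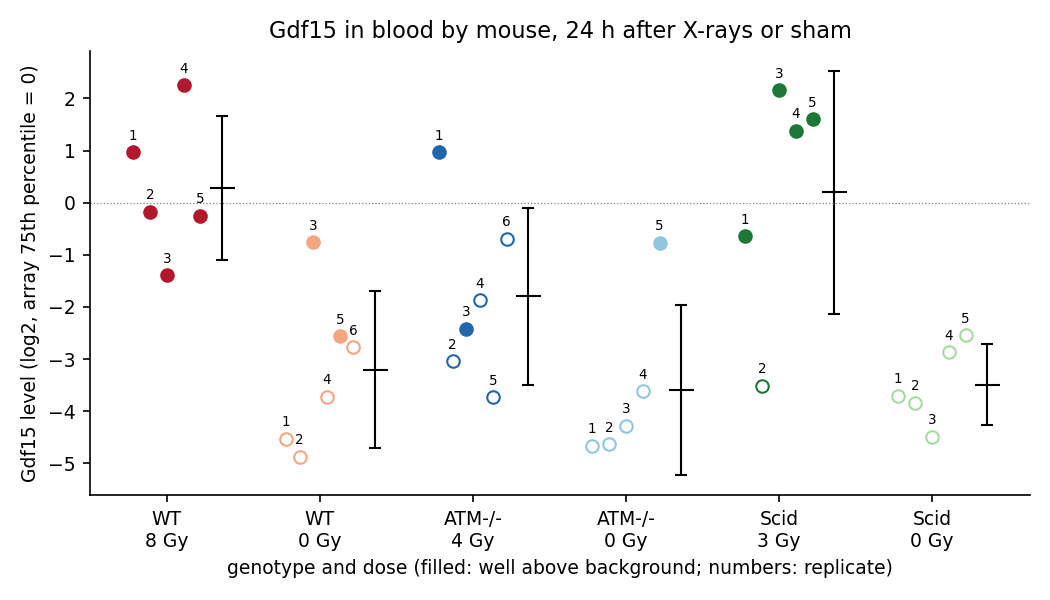
Gdf15 level (log2, 0 = the array's 75th percentile) in each mouse by genotype and dose. Filled points were well above background, open points were not, numbers are replicates, and bars give mean ± SD. The WT 8 Gy and Scid 3 Gy means, 0.28 and 0.20, stand above the ATM-/- 4 Gy mean of -1.80 and the sham means of -3.21 to -3.59.

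Ordered by mean level, the groups ran WT 8 Gy, Scid 3 Gy, ATM-/- 4 Gy, WT 0 Gy, Scid 0 Gy and ATM-/- 0 Gy. Each pair of neighbours in this order overlapped, and no step between neighbours exceeded the larger of their SDs. The widest step, from ATM-/- 4 Gy to Scid 3 Gy, was 1.999 against an SD of 2.33. Among sham mice Gdf15 differed by -0.39 in ATM-/- and by -0.28 in Scid relative to WT (95% intervals -2.24 to 1.47 and -2.14 to 1.57). Scid sham mice differed from ATM-/- sham mice by 0.10 (interval -1.83 to 2.04). The limma adjusted p was 0.948 or above in these 3 comparisons, where 0.0%, 0.0% and 0.125% of genes were called. At an unadjusted p under 0.05, limma had 342, 499 and 1540 genes in them. These means include many values at the surrogate.

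Among irradiated mice Gdf15 was at -1.80 in ATM-/- 4 Gy mice and at 0.28 in WT 8 Gy mice, a difference of -2.08 (SE 0.91, limma adjusted p = 0.362). Of the 6 ATM-/- mice, 4 lay below every WT mouse. It was 1.999 higher in Scid 3 Gy mice than in ATM-/- 4 Gy mice (SE 0.91, limma adjusted p = 0.151), and -0.08 from WT 8 Gy mice in Scid 3 Gy mice (interval -2.01 to 1.86). None of these passed the test, in comparisons where 0.541% (ATM-/- and WT), 2.96% (Scid and ATM-/-) and 9.59% (Scid and WT) of genes did.

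The responses themselves were set against each other with interaction terms. The response in ATM-/- minus that in WT was -1.69 (SE 1.29, 95% interval -4.31 to 0.93, limma adjusted p = 0.724). The response in Scid minus that in WT was 0.20 (interval -2.48 to 2.88), and in Scid minus that in ATM-/- it was 1.90 (interval -0.78 to 4.58). No gene passed any of the 3 interaction tests (0.0% each), and 1296, 1080 and 639 had an unadjusted limma p under 0.05. So the call in WT and Scid mice and its absence in ATM-/- mice is not shown to be a difference between genotypes. Scaled to spike-in probes, the ATM-/- response was 4.47 below that of WT (adjusted p = 0.00616), but that scaling moved the median of all genes by 1.25 in WT and by -1.66 in ATM-/- mice.

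**Figure D3:**
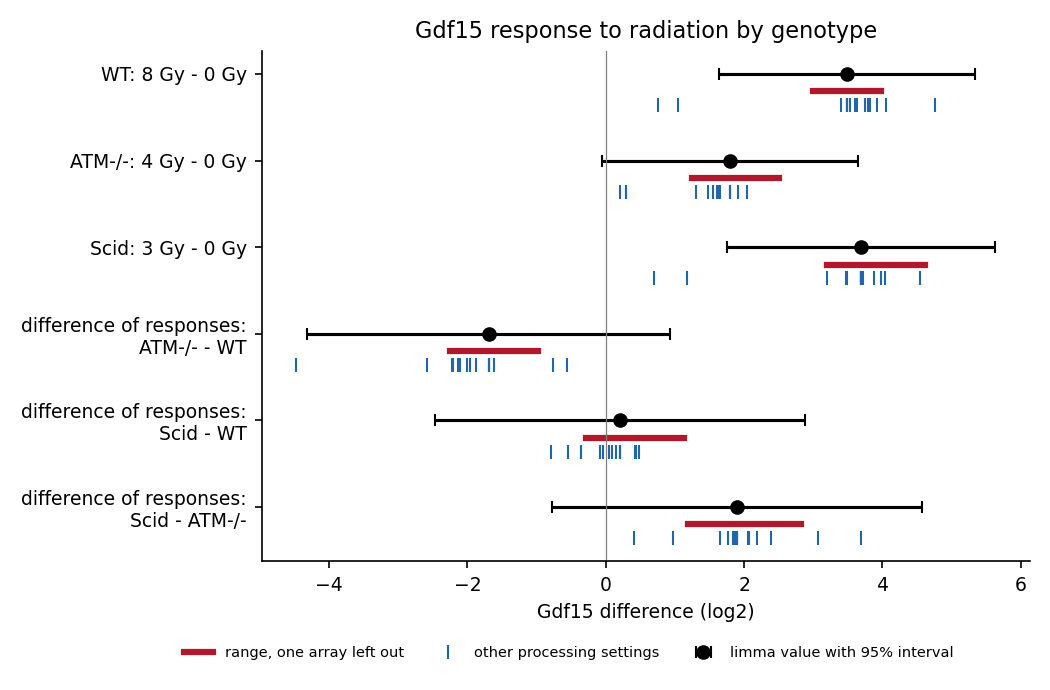
Gdf15 differences (log2) between irradiated and sham mice of each genotype, and the differences between those responses. Black points and bars are limma values with 95% intervals, red bars the range when 1 array is left out, and blue marks the other processing settings. The WT and Scid values, 3.49 and 3.69, have intervals above 0, and the ATM-/- interval reaches -0.06.

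The arrays came from 9 slides scanned on 4 days. Within scan day 1 the WT difference was 4.36 (1 irradiated and 3 sham mice), and within day 2 it was 3.37 (3 and 2 mice). The Scid difference was 1.65 within day 1 (2 and 4 mice) and 4.31 within day 2 (2 and 1 mice). The ATM-/- difference was 5.27 within day 1 (1 and 4 mice) and 0.07 within day 3 (1 and 1). The last value rests on the surrogate of ATM-/- 4 Gy replicate 6, whose unscaled signal was below that of the sham mouse, 10.9 against 56.3, and gives no direction. Each of the other 5 was positive, with too few mice in each for a test.

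Of 40 listed p53 targets 36 were tested, and in WT blood 14 of these rose and 1 fell, where 1.13% of all genes rose and 6.07% fell. The median change was 1.01 against -0.02 over all genes. Of the 36, 12 passed the filter on dim probes through WT 8 Gy mice alone, a choice that favours genes high there, and 6 of these rose. Among the 24 targets that passed through another group too, 8 rose and 1 fell, where 0.935% of all genes of that kind rose. Cdkn1a, the cell cycle inhibitor p21, was at 2.24 ± 0.62 in WT 8 Gy mice and -1.62 ± 0.54 in WT 0 Gy mice, with no overlap (1.19% of genes stood apart upward in this comparison). Its difference was 3.86. Slc19a2, a thiamine transporter, passed through WT 8 Gy mice alone, with a difference of 2.54 that was 0.33 with normexp. Aen, an apoptosis-enhancing nuclease, rose by 2.44, and Phlda3, an inhibitor of Akt, by 2.28.

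Zmat3 rose by 2.21, Ccng1 by 2.10 and Bax, which permeabilises mitochondria in apoptosis, by 1.58 (limma adjusted p of 0.0218 or lower for these 7 targets). Gadd45a, a growth arrest gene, fell by 2.18. Mdm2, the ligase that degrades p53, had a difference of 1.07 that did not pass (adjusted p = 0.0748). With normexp the list's median was 0.22 and 22 of 36 targets were positive, against 33 of 36 on the main scale.

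In ATM-/- mice none of the 36 targets was called by limma, where 0.237% of all genes were, so a count of 0 is close to that share. An unadjusted limma p under 0.05 was found for 9 of the 36, against 1829 of all 15159 genes. The targets' median change was 0.51 against -0.16 over all genes. Scaled to spike-in probes, this median was -0.99 against -1.66 over all genes. Cdkn1a was at 0.54 ± 1.24 in ATM-/- 4 Gy mice and -0.66 ± 0.48 in ATM-/- 0 Gy mice, a difference of 1.21 (adjusted p = 0.316) that was -0.30 with spike-in scaling. In Scid mice 2 of 36 rose, Cdkn1a by 3.22 (adjusted p = 0.00304) and Aen by 2.05 (adjusted p = 0.0262), and the median was 0.42 against 0.01. Gdf15 and these 2 targets were among the 9 genes that rose in Scid mice. The size of that set depended on the processing. It was 0 with normexp or spike-in scaling, and 1 with array median scaling or no filter on dim probes. It was 11 with quantile scaling and 116 with array weights. Gdf15 itself was close to the threshold there (limma adjusted p = 0.0479), and passed the filter on dim probes only through groups where it was high.

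Of 32 listed genes of the integrated stress response 28 were tested. In WT mice 3 rose and 2 fell, where 1.13% of all genes rose and 6.07% fell, so the falls are close to that share. An unadjusted limma p under 0.05 was found for 10 of the 28, against 3144 of all 15159 genes. The median was 0.25 against -0.02 over all genes. Nupr1, a stress-induced chromatin protein, rose by 2.14, Eif2ak2, the kinase PKR, by 1.60 (0.02 with normexp, and above background in 4 or more mice of the WT 8 Gy group alone) and Cebpg, a bZIP factor, by 1.26. Ppp1r15a, the eIF2α phosphatase subunit GADD34, fell by 2.73 and Asns, asparagine synthetase, by 2.09. None of the 28 was called in ATM-/- or in Scid mice, where 0.237% and 1.08% of all genes were. There 5 and 3 of the 28 had an unadjusted limma p under 0.05, against 1829 and 1452 of all 15159 genes. The medians were -0.15 and -0.00.

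Of the factors that act on Gdf15 directly in this response, neither was called. Atf4 differed by 0.16 in WT mice, where the value was 1.5002 with normexp, 0.64 with quantile and 1.44 with spike-in scaling. Spike-in scaling moved the median of all genes by 1.25 in WT mice. Atf4 differed by -0.02 in ATM-/- and 0.63 in Scid mice. Ddit3 differed by 0.12 in WT (0.29 with normexp and 1.40 with spike-in scaling), 0.52 in ATM-/- and 0.38 in Scid mice. Atf3, a stress-induced bZIP factor, differed by 0.92 in WT mice (adjusted p = 0.156), and by -0.01 there with normexp. Sesn2 and Chac1, targets of ATF4, differed by 0.46 and 0.43 in WT mice (-0.23 for Chac1 with normexp). Sesn2 was counted above with the p53 targets and not in the stress response list. Trib3 and Trp53 did not pass the filter on dim probes, with 10 and 8 of 32 arrays well above background.

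**Figure D4:**
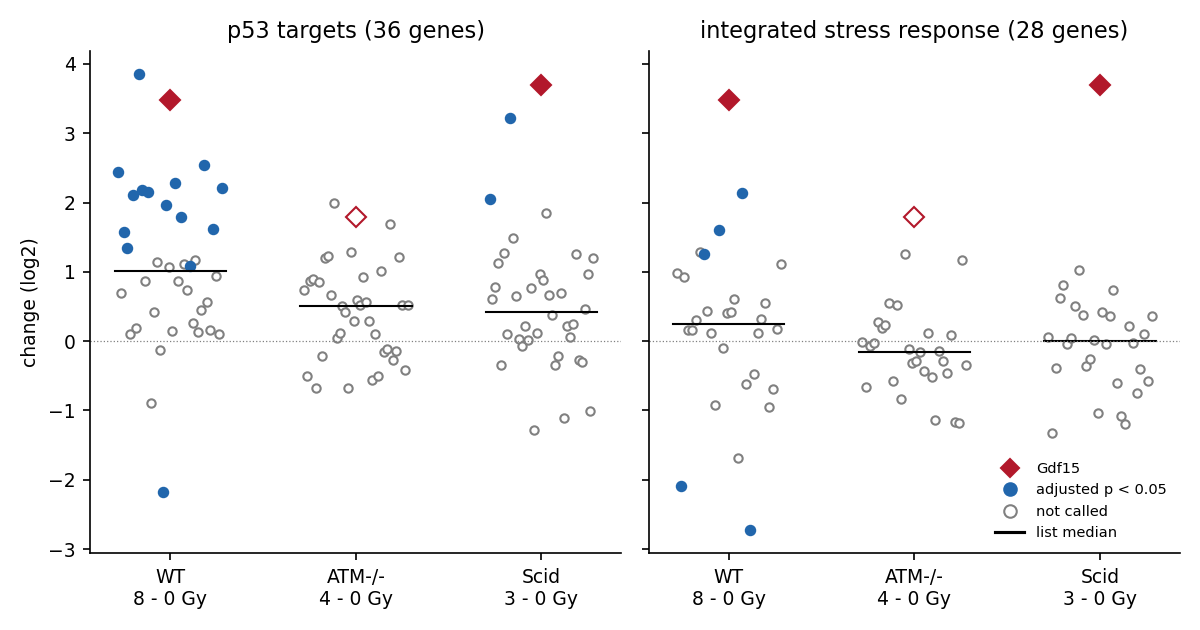
Change after irradiation (log2) of each tested p53 target and integrated stress response gene in WT, ATM-/- and Scid mice, with Gdf15 as a diamond. Filled symbols passed an adjusted p of 0.05 and lines are list medians. In WT mice the p53 targets have a median of 1.01, and the stress response genes one of 0.25.

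Few genes of the GDF15 signal itself were above background in blood. Of 10 genes for maturation and reception 2 were tested, and limma called neither in any genotype (1 unadjusted p under 0.05, that of Gfra4 in WT mice). Furin, the protease, differed by 0.11 in WT (0.76 with normexp), -0.26 in ATM-/- and 0.51 in Scid mice, and Gfra4, a relative of the receptor, by -1.20, 0.13 and -0.21. The WT value of Gfra4 was 0.19 with normexp. Gfral was well above background on 2 of 32 arrays, Ret on 1 and Mmp14, which sheds the receptor, on 4, and none of them was tested.

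Of 33 listed TGF-beta family ligands 16 were tested, and none was called in any of the 3 irradiation comparisons (medians -0.01 in WT, -0.04 in ATM-/- and 0.36 in Scid mice). At an unadjusted limma p under 0.05 there were 2 in WT, 1 in ATM-/- and 0 in Scid mice. With so few genes called in these comparisons, a count of 0 of 16 is close to the share over all genes. In Scid mice 13 of the 16 were positive, where the median of all genes was 0.01. Tgfb2, named after its values were seen, had a difference of 2.25 in WT mice (adjusted p = 0.133; 0.98 with normexp). Tgfb1 differed by 0.02 in WT mice (0.99 with normexp), Bmp1 by -1.32 (-0.17 with normexp) and Lefty2 by -0.58 (0.54 with normexp). Of 14 tested receptors and SMADs none was called (1 unadjusted limma p under 0.05, in ATM-/- mice), with a difference of -0.35 for Tgfbr2 (0.10 with normexp) and 0.11 for Smad4 in WT mice. Of 10 iron and erythroblast genes 4 were tested and none was called (1 unadjusted limma p under 0.05, in WT mice). Epor, the erythropoietin receptor, differed by 1.004 and Slc40a1, the iron exporter, by -0.31 in WT mice (0.11 with normexp). Hamp and Erfe, which encode the iron hormone hepcidin and an erythroid hormone that suppresses it, were well above background on 9 and 2 of 32 arrays.

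The genes whose levels followed Gdf15 most closely were ranked by Pearson's r over the 32 arrays among 12021 genes. Pxdc1 came first (r = 0.80), then Cdkn1a (0.76), Kank3 (0.76), Saa1 (0.72), Ccdc9b (0.71), Mfsd7a (0.68), Zmat3 (0.67) and Rai14 (0.67). Over all ranked genes r had a median of -0.01. The lowest were Plp2 (-0.74), Chst10 (-0.72), Stk17b (-0.72) and Cxcr4 (-0.70). These are descriptions over arrays that share the treatment, the scaling and, for many, a Gdf15 value at the surrogate.

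Cdkn1a keeps a lower r of 0.42 within groups, and Pxdc1 one of 0.60. Without the 2 arrays with the most extreme Gdf15, WT 8 Gy replicate 4 and Scid 3 Gy replicate 3, r was 0.70 for Cdkn1a and 0.80 for Pxdc1. Pxdc1 was itself dim, above background on 3 of 5 Scid 3 Gy arrays and none of 5 Scid 0 Gy arrays, where it was called higher (adjusted p = 0.0281) with no measured size. Saa1, an acute-phase protein, rose by 2.72 in WT mice (adjusted p = 0.000631), and differed by 0.52 in ATM-/- and 0.65 in Scid mice without a call. Chst10, a sulfotransferase, fell by 2.65 in WT mice (adjusted p = 0.000672). In Scid mice it was called lower (adjusted p = 0.0141) with no measured size, since no Scid 3 Gy array had it well above background.

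Over the 16 irradiated arrays Gdf15 and Cdkn1a had r = 0.74 and Spearman's rho = 0.90. Gdf15 was well above background on 11 of these 16, so both values include dim arrays whose order cannot be read. On the 16 sham arrays Gdf15 was well above background on only 3, so its order there cannot be read. The irradiated array farthest from the others was ATM-/- 4 Gy replicate 6, where Gdf15 is a surrogate. Without it, a choice made after its values were seen, r was 0.95 over 15 arrays. Those 15 still held Scid 3 Gy replicate 2, where Gdf15 is also a surrogate. The lowest irradiated Gdf15 level, -3.73 in ATM-/- 4 Gy replicate 5, was not well above background and stood beside a Cdkn1a level of -0.18. The highest, 2.25 in WT 8 Gy replicate 4, stood beside one of 3.27.

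**Figure D5:**
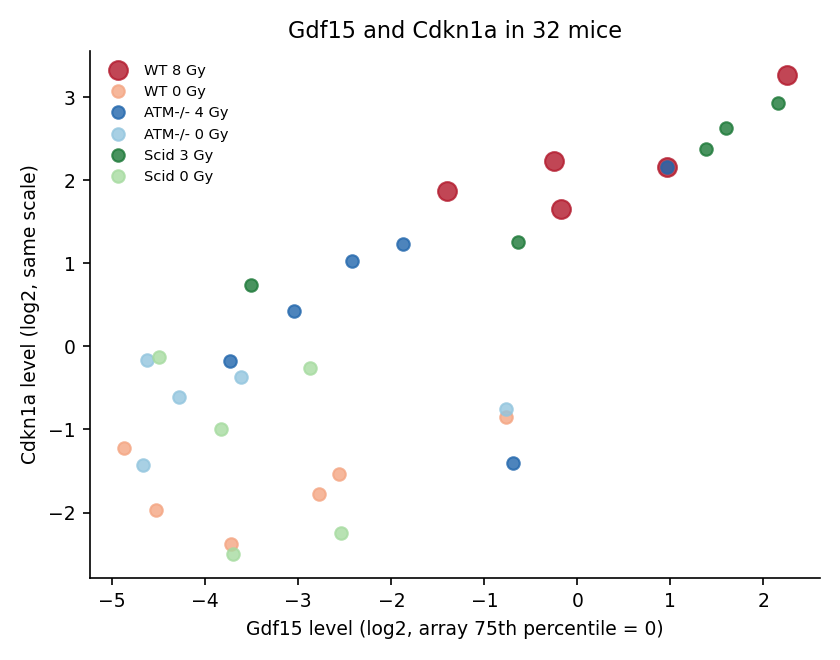
Gdf15 level against Cdkn1a level (both log2, 0 = the array's 75th percentile) in the 32 mice, coloured by genotype and dose. WT 8 Gy replicate 1 and ATM-/- 4 Gy replicate 1 nearly coincide at a Gdf15 level of 0.97. The irradiated mice lie along a rising band (r = 0.74), with Gdf15 well above background in 11 of 16. Most sham Gdf15 values were not above background and have no order.

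Markers of blood cells moved in the same comparison. In WT mice 4 of 14 tested monocyte and macrophage markers rose, where 1.13% of all genes did, and their summed level was 6.70 to 8.82 in WT 8 Gy mice, against 6.02 to 6.93 in WT 0 Gy mice. Markers that passed the filter on dim probes through WT 8 Gy mice alone were not counted apart here. WT 8 Gy replicates 4 and 1, the highest of their group for Gdf15, had its highest sums, 8.82 and 8.17, and ATM-/- 4 Gy replicate 1 had 8.33. Scid 3 Gy replicates 3, 5 and 4, the highest of their group for Gdf15, had 7.15, 7.05 and 7.39. The highest Scid 0 Gy sum was 7.19. Of 14 tested markers limma called none in ATM-/- or Scid mice. There 0.237% and 1.08% of all genes were called, so a count of 0 is close to those shares. None of the 14 had an unadjusted limma p under 0.05 (0), against 1829 and 1452 of all 15159 genes. The sums were 6.35 to 7.39 in Scid 3 Gy mice, against 5.86 to 7.19 in Scid 0 Gy mice. All 15 listed monocyte markers were above background on some array. The part of these cells in the Gdf15 result was not tested.

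Of the 13 erythroid markers 10 fell in WT mice, where 6.07% of all genes did, with sums of 10.3 to 11.8 in WT 8 Gy mice, against 11.1 to 13.5 in WT 0 Gy mice. In Scid mice, where 1.02% of all genes fell, 5 of 13 did. In ATM-/- mice 1 of 13 fell, where 25 of all 15159 genes did. An unadjusted limma p under 0.05 was found there for 9 of the 13, against 1829 of all 15159 genes. Of the 9 tested B cell markers 4 fell in WT mice, with sums of 1.85 to 4.47 in WT 8 Gy mice, against 1.77 to 7.26 in WT 0 Gy mice. In ATM-/- mice 1 of 9 fell (6 at an unadjusted limma p under 0.05). The sums there were 4.31 to 6.47 in ATM-/- 4 Gy mice, against 6.00 to 7.43 in ATM-/- 0 Gy mice. In Scid mice 0 of 9 fell (2 at an unadjusted limma p under 0.05). Among sham mice, Scid 0 Gy replicate 4 had a B cell sum of 6.16, the highest of its group. WT 0 Gy replicate 3 had one of 1.77, the lowest of its group, and both arrays were on slide 4. The genotype labels were not tested against these sums. Hepatocyte markers, of which limma called none of 10 (0 at an unadjusted p under 0.05), reached sums of 12.1 and 12.6 in WT 8 Gy replicates 1 and 2, 12.7 in WT 0 Gy replicate 5 and 11.95 in ATM-/- 4 Gy replicate 3. Without these 4 arrays the WT difference of Gdf15 was 3.53 (limma adjusted p = 0.0775) and the Scid difference 3.69 (adjusted p = 0.0508). None of 6 tested heart muscle markers was called (0 at an unadjusted limma p under 0.05). The part of these tissues in the Gdf15 result beyond that fit was not tested.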

How the data were processed

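Whole blood RNA of 32 mice was measured on 1-colour Agilent arrays. The deposited intensity values, gProcessedSignal, are background-subtracted by Agilent Feature Extraction, version 12.0.2 per the submitters' processing notes. The deposited log2 table of the authors' normalized values has no row for the Gdf15 probe and served only as an alternative for the lists. The other deposited columns are flags (well above background, surrogate, outlier, saturated).

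Outlier spots were left out, and log2 signals were scaled to each array's 75th percentile. A probe was kept if 4 or more arrays of any group read it well above background (18367 probes), and the probe of highest mean signal stood for its gene. Of 15159 genes, 12210 had a symbol in the RefSeq table. limma 3.58.1 (R 4.3.3) fitted 6 group means on 32 arrays, and scipy 1.17.1 gave exact permutation tests for Gdf15. Replicates are mice, per the design text. Probes above background made up 20.02% to 58.6% of an array, and signal over background limits precision. The fit was tested on simulated data.

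The gene and the lists were chosen with earlier results of these data known. Named genes are a fixed set of p53, stress response and GDF15 pathway genes, up to 3 called members of largest change per list (or the 2 brightest where none was called), and the 8 highest and 4 lowest correlations with Gdf15. Alternatives were background correction, scaling, filters, blocks, weights and left-out arrays.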

Additional observations from a re-analysis of the deposited data

Results flagged for a closer look

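Gdf15 in ATM-/- sham replicate 5 stood apart from its group: its level was -0.77, the next highest -3.61. It was the only ATM-/- sham array with the probe well above background, and the Gdf15 levels of the other 5 groups held no such array. Over the 40 genes and 240 groups of arrays examined in this way, 13 arrays stood apart, and chance alone gives about 1 in 20. High arrays were Slc19a2 in WT 0 Gy replicate 5 (0.84), Atf3 in ATM-/- 0 Gy replicate 4 (0.21), Plp2 in ATM-/- 0 Gy replicate 1 (5.03), and Cxcr4 in ATM-/- 4 Gy replicate 5 (2.09) and in Scid 3 Gy replicate 2 (0.50). Low arrays were Ccng1 in ATM-/- 4 Gy replicate 6 (-2.41), Mdm2 in Scid 0 Gy replicate 5 (0.53), Ppp1r15a in Scid 3 Gy replicate 3 (3.21) and Kank3 in Scid 0 Gy replicate 1 (-2.21). Low arrays were also Ccdc9b in ATM-/- 0 Gy replicate 1 (-2.51), Smad4 in Scid 0 Gy replicate 5 (-2.41) and Chac1 in WT 8 Gy replicate 4 (-3.23).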

How the results depend on the processing

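Gdf15 kept a positive WT, Scid and ATM-/- response under every alternative that gave a value. Left-out arrays aside, it was 0.76 to 4.76 in WT, 0.69 to 4.54 in Scid and 0.20 to 2.05 in ATM-/- mice, where it was never called. In WT the call was lost with normexp (1.05), slide as a fixed block (3.40), without the 4 arrays of high hepatocyte markers (3.53) and with levels raised to the common detection limit (0.76), a setting chosen after seeing the data. In Scid it was lost with normexp (0.69), array median (3.47), spike-in scaling (3.98), no filter (3.69), scan day (3.20) and slide (3.48) as fixed blocks, without the 4 arrays (3.69), with the Scid arrays alone (3.69) and at the common limit (1.18). By construction the common limit sets dim values equal. The scan day fit has no information from the single array of day 4, a WT 8 Gy one.

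Spike-in scaling made calls of ATM-/- 4 Gy against WT 8 Gy (-4.55), Scid 3 Gy against ATM-/- 4 Gy (3.16, and 2.83 with array weights) and of the ATM-/- minus WT (-4.47) and Scid minus ATM-/- responses (3.69). Differences near 0 changed sign. ATM-/- minus WT sham was 0.24 with normexp and 0.0066 with slide. Scid minus WT sham was 0.19 with normexp, 0.11 with scan day and 0.40 with slide. Scid minus ATM-/- sham was -0.047 with normexp, -0.43 with quantile, -0.10 with median, -0.18 with detected-probe, -0.53 with spike-in scaling and -0.24 with weights. Scid 3 Gy minus WT 8 Gy was 0.49 with slide, 0.017 with weights and 0.42 at the common limit. The Scid minus WT response was -0.36 with normexp, -0.35 with median, -0.038 with detected-probe and -0.79 with spike-in scaling, -0.55 with scan day and -0.078 with the share of probes above background as covariate. The causes were not tested.

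Leaving out 1 array gave 2.99 to 3.97 in WT, 3.20 to 4.62 in Scid and 1.24 to 2.50 in ATM-/- mice. It gave -1.09 to 0.10 for ATM-/- and -0.62 to 0.21 for Scid minus WT sham, -0.17 to 0.81 for Scid minus ATM-/- sham, -2.63 to -1.58 for ATM-/- 4 Gy minus WT 8 Gy, -0.57 to 0.85 for Scid 3 Gy minus WT 8 Gy and 1.51 to 2.93 for Scid 3 Gy minus ATM-/- 4 Gy. For the response differences it gave -2.25 to -0.99 (ATM-/- minus WT), -0.29 to 1.13 (Scid minus WT) and 1.19 to 2.82 (Scid minus ATM-/-). The 20 listed pathway genes called in WT became 12 with normexp, 47 with spike-in scaling, 8 with probes above background on all arrays, 13 with scan day, 5 with slide, 36 with weights, 12 with the covariate, 12 at the common limit and 12 to 26 without 1 array, with 13 without WT 0 Gy replicate 1 and 12 without WT 8 Gy replicate 4.

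With the replicate number as a block the Gdf15 values were 3.64 in WT, 1.64 in ATM-/- and 3.69 in Scid mice, and no call changed. The numbers share no source in the labels, and correlations of same-numbered deviations ran from -0.73 to 0.35. Another Gdf15 probe was not tried, since only 1 carries the name. No Gdf15 value came from the authors' normalized values or from probes above background on all arrays. At the common limit the 3 sham comparisons have no value, since every sham Gdf15 level lies below it.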
